A study of Mus musculus with 6 samples.

Results

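Integrins and the laminins were followed on Agilent mouse expression arrays of mouse 3T3 cells, a long-established fibroblast line from embryos, after inhibition of the long noncoding RNA Ntep. The members were the non-control probes whose gene name is that of 1 of 34 genes, 24 integrin subunits and 10 laminin chains, out of 35527 gene names on the array. All 34 genes were found, on 46 of 55681 probes (Lamb1 stands under its older name Lamb1-1), and 25 of them were bright enough to be tested. Cells received 50 nM of GapmeR Ntep, a modified antisense oligonucleotide by which RNase H cuts Ntep RNA, or of GapmeR control, and RNA was collected after 48 h, with 3 arrays per group from 3 independent experiments.

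Integrins are transmembrane receptors built of 1 alpha and 1 beta subunit, which together decide which ligand a cell can hold. They link the extracellular matrix to actin through adaptor proteins such as talin and kindlin. Laminins are cross-shaped trimers of an alpha, a beta and a gamma chain that form the sheet of the basement membrane, and several integrins are laminin receptors. In fibroblasts the best known receptors are those for collagen, fibronectin and vitronectin. Whether integrin and laminin mRNA differed between cells given GapmeR Ntep and cells given GapmeR control is the question of the comparison below.

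Values are quantile-normalized intensities, with values under 20 set to 20, and log2 differences are GapmeR Ntep minus GapmeR control. The share of probes well above background was 43.7% to 53.3% per array, and 0 probes were saturated. The Ntep probe itself did not separate the groups. It read 472, 91.5 and 226 on the arrays labelled GapmeR Ntep against 271, 272 and 361 on those labelled GapmeR control (log2 difference -0.48, SE 0.58, limma adjusted p = 0.632). Since replicate 1 went against its label, directions below are those of the labels. Of 12 fibroblast markers, 9 were well above background on all 6 arrays and Fap on none. Their summed intensity was 760035 to 832672 on the control arrays and 522659 to 681897 on the Ntep arrays. Bright collagen genes weigh most in this fall. Mean Col3a1 was 172643 in controls and 101288 with GapmeR Ntep, and mean Col1a2 was 168979 and 105581. Of 10 markers tested, 9 had a log2 difference below 0, among them Vim at only -0.12, and Thy1 was at 0.05. Fewer cells of a type and less RNA per cell cannot be told apart in such bulk samples.

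Sequences of 3 probes are shown for subunits that are central here, and each has a reading frame without a stop codon. Both probes of Itgb1, the beta subunit that most alpha subunits pair with, are on chromosome 8 of mm9, at chr8:131250081-131255976 (plus strand, across 5896 bases of genome, so over an intron) and chr8:131246349-131246408 (plus strand). The Lamb2 probe, for a beta chain of laminin, is at chr9:108392189-108392248 (plus strand). They are printed 5′ to 3′ with no part in capitals.
Itgb1, probe A_66_P113059: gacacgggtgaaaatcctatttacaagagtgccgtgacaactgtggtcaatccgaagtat
Itgb1, probe A_52_P351816: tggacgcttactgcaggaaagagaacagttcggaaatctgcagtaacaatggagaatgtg
Lamb2, probe A_51_P248044: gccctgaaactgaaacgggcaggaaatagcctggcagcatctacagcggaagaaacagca

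Promoters are shown for 4 of the genes with a large difference or groups that lay apart. They come from RefSeq (GRCm38.p6), as the 250 bases before the start of transcription on the strand of the gene. Every CG dinucleotide is in capitals, since their number differs between these 4 promoters. They lie at chr3:96645334-96645583 (plus strand, Itga10), chr2:83724147-83724396 (plus strand, Itgav), chr2:180225860-180226109 (minus strand, Lama5) and chr9:108479612-108479861 (plus strand, Lamb2).
Itga10 promoter: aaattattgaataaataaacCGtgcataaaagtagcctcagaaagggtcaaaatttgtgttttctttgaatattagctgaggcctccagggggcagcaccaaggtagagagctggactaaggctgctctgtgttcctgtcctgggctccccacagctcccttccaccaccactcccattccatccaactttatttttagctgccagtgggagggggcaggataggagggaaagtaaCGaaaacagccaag
Itgav promoter: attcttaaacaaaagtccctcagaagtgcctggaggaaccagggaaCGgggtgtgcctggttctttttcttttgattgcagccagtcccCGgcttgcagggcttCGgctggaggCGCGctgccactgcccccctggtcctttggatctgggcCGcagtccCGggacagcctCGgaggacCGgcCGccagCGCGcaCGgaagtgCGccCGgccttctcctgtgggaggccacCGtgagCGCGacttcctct
Lama5 promoter: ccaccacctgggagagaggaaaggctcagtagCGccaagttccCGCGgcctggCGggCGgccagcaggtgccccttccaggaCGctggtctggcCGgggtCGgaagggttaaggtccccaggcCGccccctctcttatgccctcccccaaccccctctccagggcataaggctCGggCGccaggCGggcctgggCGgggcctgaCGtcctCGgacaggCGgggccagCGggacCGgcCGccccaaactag
Lamb2 promoter: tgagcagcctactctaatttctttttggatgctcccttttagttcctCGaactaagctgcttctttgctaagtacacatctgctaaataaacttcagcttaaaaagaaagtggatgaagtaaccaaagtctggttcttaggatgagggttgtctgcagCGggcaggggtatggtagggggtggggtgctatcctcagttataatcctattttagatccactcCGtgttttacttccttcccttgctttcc

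The Itga10 and Lamb2 windows held 2 and 3 CG dinucleotides, and the Itgav and Lama5 windows 18 and 19, against a median of 6 over 32851 promoters. The window of Itgb7, a gene with a larger difference than Itgav that is not printed, held 5. RefSeq windows were found for 22 of the 34 genes, 25 windows in all, with a median of 10. A GC box (GGGCGG, either strand) was present in 7 of the 22 genes, among them Lama5 with 4 matches, and in 32.7% of all promoters. The letters TATAAA, on either strand, were in none of the 25 windows and in 12.4% of all promoters. The AP-1 letters TGACTCA were found for 1 gene, Itgax, against 4.46% of all promoters, and CCAAT for 4 genes against 33.8%. The windows of Itga10, Itgav and Lamb2 had no match to any of these 4 motifs.

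No integrin or laminin gene passed an adjusted p under 0.05 (limma, unpaired, Benjamini-Hochberg over 30990 probes), with 0 of 25 genes lower and 0 higher. Over all 22094 genes tested, each by its brightest probe, 3.17% were lower and 1.98% higher by this rule. At an unadjusted p under 0.05, 3 members were lower (Itga10, Lama5 and Lamb2) and 0 higher, where 12.6% and 12.3% of all genes were. At a fold change of 2 with an unadjusted p under 0.01, 1 member, Itga10, was lower and 0 were higher, where 4.99% and 2.88% of all genes were. In 4 genes (Itga10, Lama5, Lamb2 and Lamc1) every Ntep array lay below every control array, and in 0 above. This is 4 of 25, beside 15.4% of all genes that lay apart downwards and 17.1% upwards. In the fit blocked by experiment 1 member, Itga10, was lower and 1, Itgav, was higher after adjustment, where 7.4% and 6.49% of all genes were. The members' counts were thus near or below those of all genes in each of these rules.

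Of the 25 genes, 14 had a log2 difference below 0 and 11 above. These include Itga2 (below) and Itgax (above), each above 20 on 1 array only. That array carried each past the intensity cutoff and fixed its direction. Over all 22094 genes tested, 10094 had a difference below 0 and 12000 above. The median of the members was -0.16, beside 0.06 over all genes tested. With a cutoff of 100 it was -0.05 over 21 members, beside 0.05 over all genes. The 18 integrins had a median of 0.02 and the 7 laminins one of -0.29. In the plot of differences, the 95% interval stayed within a 2-fold change either way for 8 genes (Itga3, Itga6, Itgb1, Itgb2, Itgb3, Itgb5, Lama3 and Lamb1). For the other 17 genes a change of 2-fold in at least 1 direction was within the interval. Standard errors ran from 0.175 for Itga6 to 1.05 for Itga11, with 3 arrays per group.

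**Figure D1:**
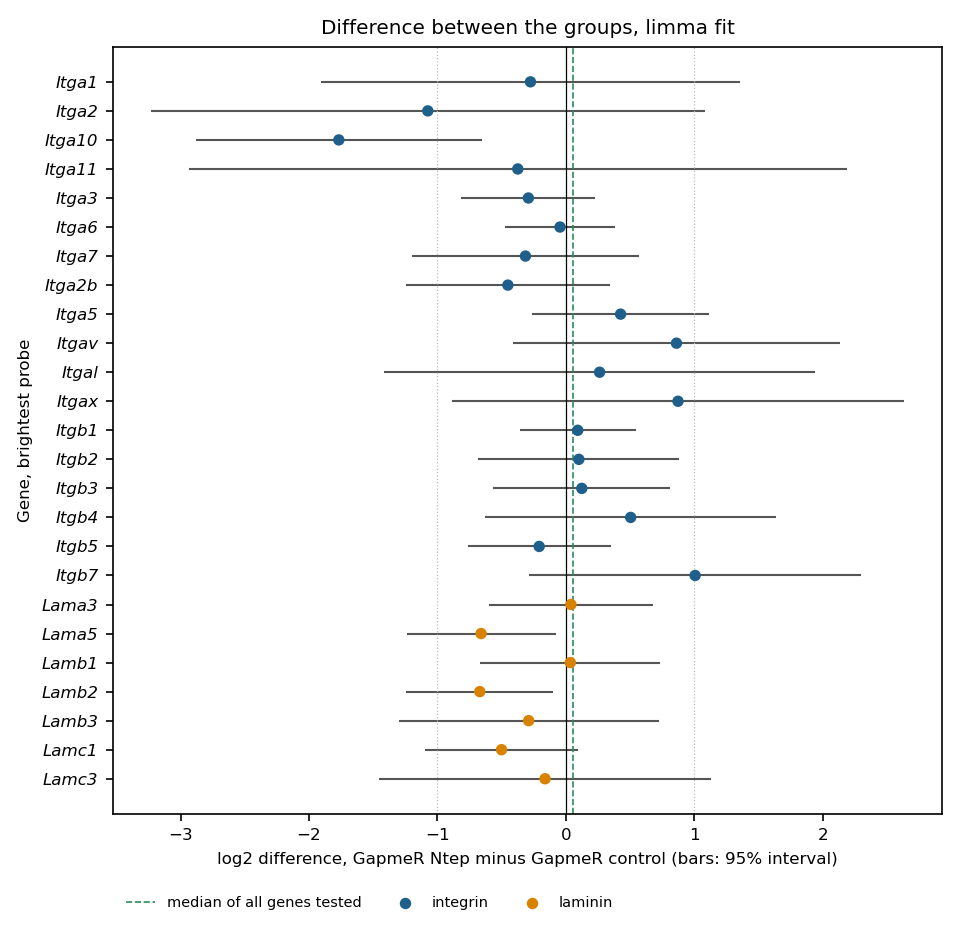
Log2 difference (GapmeR Ntep minus GapmeR control) of the brightest probe of each tested gene on the x axis, with its 95% interval from limma as a bar; integrins are blue, laminins orange, the dashed line is the median of all genes tested (0.06) and the dotted lines are 2-fold changes. The intervals of Itga10, Lama5 and Lamb2 leave out 0, and that of Itga11 is the widest.

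Itga10 encodes the alpha10 subunit, a collagen receptor that pairs with beta1 and is best known from cartilage. Its probe A_55_P2111533 (chr3:96468377-96468436, plus strand, mm9) read 2970, 6389 and 7424 on control arrays 1, 2 and 3 and 1158, 2450 and 1257 on Ntep arrays 1, 2 and 3. All Ntep arrays were below all control arrays, and the array nearest to the controls was Ntep 2. The mean was 5594 ± 2331 in controls and 1622 ± 719 with GapmeR Ntep (SD, n = 3 each). The log2 difference was -1.77 (SE 0.46), 3.41-fold lower, with an unadjusted limma p of 0.00804 and a limma adjusted p of 0.0784. The same-numbered arrays differed by -1.36, -1.38 and -2.56. With experiments as blocks the limma adjusted p was 0.0428, and in unpaired fits it was 0.0486 with an intensity trend and 0.00477 with array weights. At 2-fold with an unadjusted p under 0.01, Itga10 was no longer called without Ntep 1, Ntep 3, control 2 or control 3. A second probe, A_55_P2097913, gave -1.80, but it lies 6 bases further along the same stretch and is not a separate measurement.

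The other 3 collagen-binding alpha subunits were dim. Itga1, a receptor for collagen IV as well as fibrillar collagens, had a log2 difference of -0.28 (SE 0.67, limma adjusted p = 0.821) on its brightest probe. That probe was detected above background on every array. Its control 1 and Ntep 1 arrays, at 98.0 and 49.7, stood below the other 4, at 200.2 to 239. A second Itga1 probe, at 20 to 40.9, was well above background on no array and was not tested. Itga11, the fibroblast receptor for fibrillar collagen, was well above background on 2 control arrays and 1 Ntep array. It read 29.1, 109 and 101 in controls and 246, 30.0 and 20 with GapmeR Ntep, so no direction could be read from it (-0.38, SE 1.05). Itga2, known from platelets and epithelium, was above 20 on 1 array only, control 3, at 187.

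Among the alpha subunits that bind the RGD motif of fibronectin and vitronectin, Itgav was higher in all 3 experiments. Itgav pairs with several beta subunits, and some of its integrins also release active TGF-beta. Probe A_51_P382484 (chr2:83646133-83646192, plus strand, mm9) read 6357, 2346 and 2191 on control arrays and 9636, 4211 and 4814 on Ntep arrays. The groups overlapped, because control 1 was above Ntep 2 and Ntep 3. The log2 difference was 0.86 (SE 0.52, limma adjusted p = 0.359), and within experiments it was 0.60, 0.84 and 1.14. In the fit blocked by experiment the adjusted p was 0.0495, just inside the threshold. A second Itgav probe further upstream in the gene gave 1.33 (adjusted p 0.344 unpaired and 0.034 blocked).

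Itga5, the fibronectin receptor subunit that pairs with beta1, read 3619, 2117 and 2047 in controls and 3964, 3312 and 2891 with GapmeR Ntep. Each Ntep array was above its own control, by 0.13, 0.65 and 0.50, while the groups overlapped through control 1. The difference of 0.43 (SE 0.28) did not pass the test (limma adjusted p = 0.398). Itga2b, the platelet subunit, was well above background on 4 of 6 arrays, with a difference of -0.45 (SE 0.33, adjusted p = 0.434). None of the 6 platelet and megakaryocyte markers was well above background on all arrays. Itga8 was at 20 on every array.

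**Figure D2:**
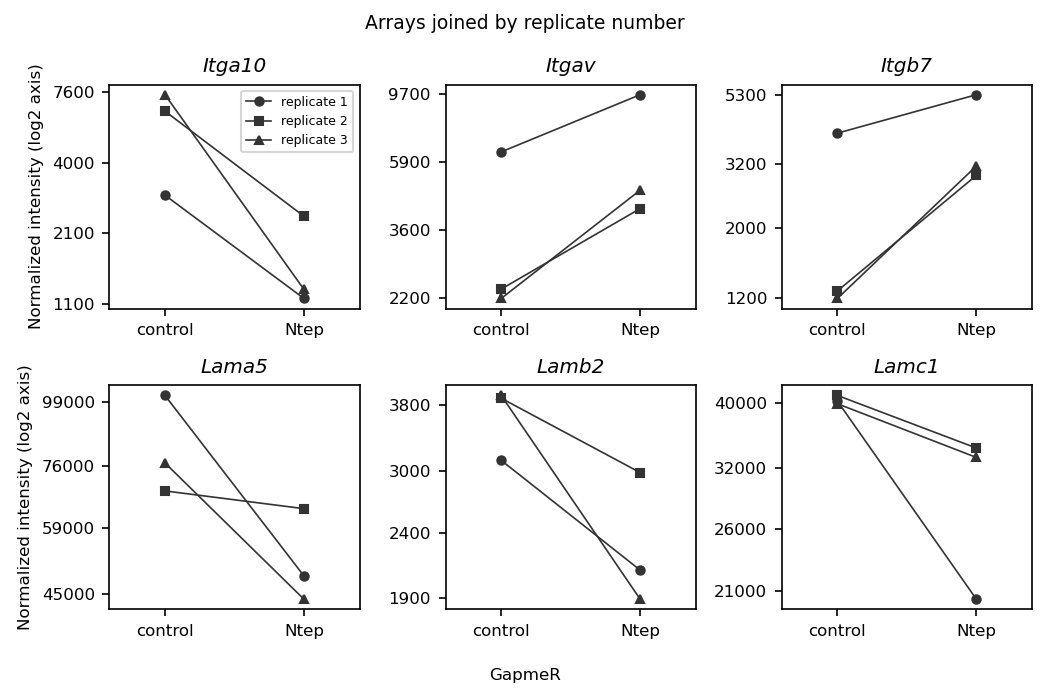
Normalized intensity on a log2 axis for 6 genes on the 3 control and 3 Ntep arrays, lines joining arrays of the same replicate number (1 experiment each). Itga10, Lama5, Lamb2 and Lamc1 are lower along every line and Itgav and Itgb7 higher, while replicate 1 lies above the others in both groups for Itgav and Itgb7.

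The laminin-binding alpha subunits were well above background on every array, and Itga6 was by far the brightest. Itga6, which forms laminin receptors with beta1 and beta4, has 2 probes that gave different values. The brightest, A_55_P2015670 (chr2:71694756-71694815), read 26825, 21741 and 24062 in controls and 25859, 21188 and 23256 with GapmeR Ntep. Its difference of -0.05 (SE 0.17, 95% interval -0.47 to 0.38) was the most precise among the members. The other, A_55_P1958840 (chr2:71690633-71690692, plus strand, mm9), which the files tie to another cDNA, read 18322, 22861 and 19279 against 8106, 14655 and 12697. On this probe all Ntep arrays were below all controls, with a difference of -0.81 (SE 0.27, limma adjusted p = 0.132). The gap between the probes, -0.76, had an exact two-sided permutation p of 0.2, where 3 against 3 arrays cannot go below 0.1. Over 7 such comparisons in 6 genes, no adjusted p was below 0.583. With that limit none could have passed 0.05, so the comparisons do not show that the probes of a gene agree. The widest gap, -1.13, was between the Itgb3 probes, with the lowest possible permutation p of 0.1.

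Itga3, a receptor for laminins of the epithelial and vascular basement membrane, differed by -0.29 (SE 0.21, limma adjusted p = 0.44). It was lower in each experiment, by 0.69, 0.08 and 0.11 on the log2 scale. Itga7, the laminin receptor of muscle, differed by -0.32 (SE 0.36, adjusted p = 0.613). Its controls read 1802, 3073 and 2795 and its Ntep arrays 2977, 2009 and 1342, so Ntep was above control in experiment 1 and below it in experiments 2 and 3. Of 7 skeletal muscle markers only Acta1 was well above background on all arrays.

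Of the leukocyte alpha subunits, Itgal (the alpha chain of LFA-1) differed by 0.26 (SE 0.69, limma adjusted p = 0.837), and Itgax was above 20 on Ntep 3 only, at 123. Itgae was well above background on no array. Itga4 and Itga9, receptors for VCAM-1, fibronectin and tenascin, were likewise well above background on no array, and both Itga4 probes stood at 20 throughout. The summed intensity of 12 leukocyte markers was 9023 to 13289 on control arrays and 20079 to 30028 on Ntep arrays. Most of this sum came from Cd68 (means of 4663 in controls and 10852 with GapmeR Ntep) and Cd14 (4791 and 10259). Csf1r, at 544 and 2774, added to the rise, so the sum does not describe the markers in general. Of 8 markers tested, 5 had a difference above 0 and 3 below (Coro1a, Laptm5 and Lyz2). After adjustment 0 were lower and 1 higher, the lysosomal protein Cd68 (1.21, limma adjusted p = 0.0287), beside 3.17% and 1.98% of all genes. At 2-fold with an unadjusted limma p under 0.01, 2 were higher (Cd14 and Cd68), beside 2.88%. With experiments as blocks 0 were lower and 3 higher after adjustment (Cd14, Cd68 and Csf1r), beside 7.4% and 6.49%. Cd68, Cd14 and Csf1r were among the 6 detected on all arrays, while Ptprc, Adgre1, Cd79a and Tyrobp were well above background on none. Their part in the values of leukocyte integrins was not tested.

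**Figure D3:**
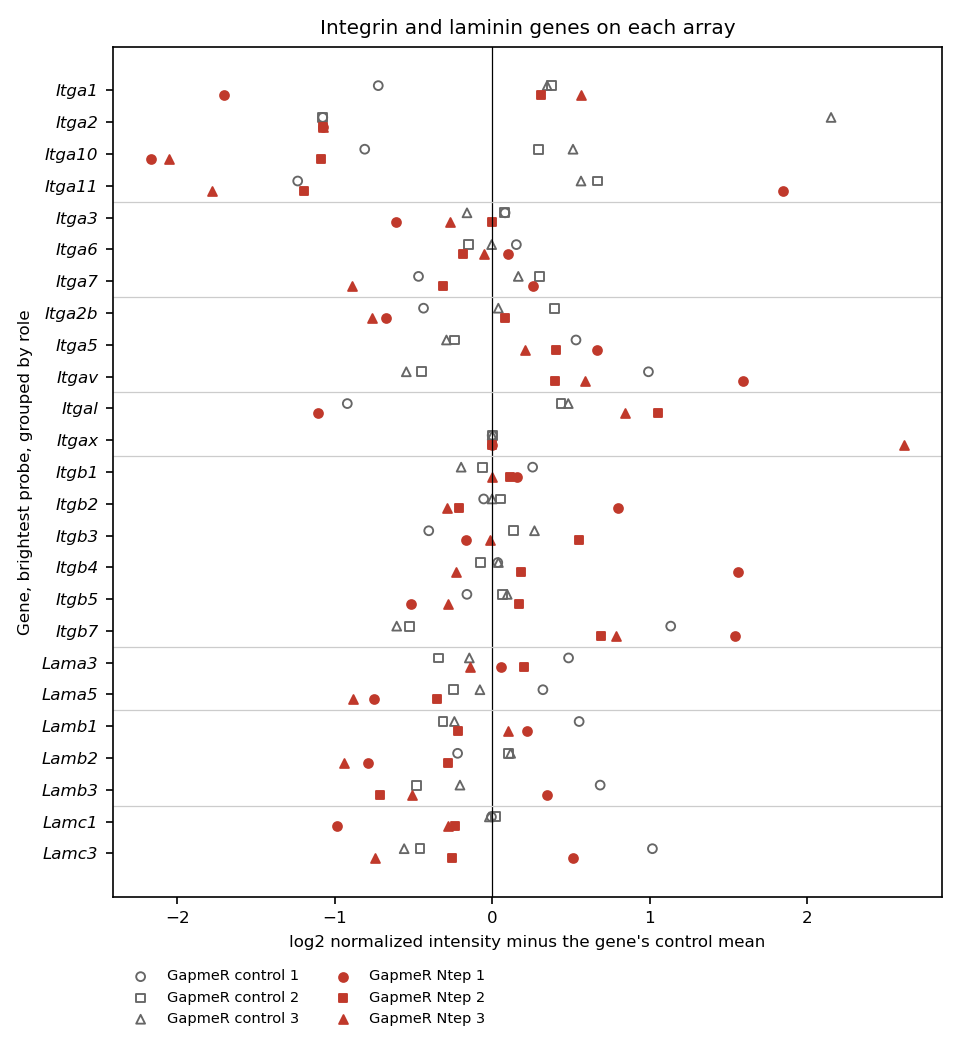
Each array's log2 normalized intensity minus the mean of the controls for that gene, for the 25 tested genes grouped by role; open grey symbols are GapmeR control and filled red symbols GapmeR Ntep, with circles, squares and triangles for replicates 1, 2 and 3. Filled and open symbols separate fully for Itga10, Lama5, Lamb2 and Lamc1, and circles stand apart in both groups for Itga1, Itgal, Itgav and Lamc3 among others.

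The beta subunits gave no call. Itgb1 read 28293, 22723 and 20657 in controls and 26435, 25639 and 23703 with GapmeR Ntep on its brightest probe. The groups overlapped closely, with a difference of 0.09 (SE 0.19, 95% interval -0.36 to 0.54, limma adjusted p = 0.785). The second probe, printed above beside it, gave 0.35 (SE 0.34, adjusted p = 0.55). Itgb5, a partner of alphav at vitronectin, differed by -0.21 (SE 0.23) and Itgb3, another partner of alphav, by 0.12 (SE 0.28). A dim Itgb3 probe, well above background on 3 of 6 arrays, gave -1.004 (SE 0.52, adjusted p = 0.291). Itgb2, the leukocyte beta chain, differed by 0.10 (SE 0.32). Itgb4, whose long tail anchors hemidesmosomes, differed by 0.50 (SE 0.46), with Ntep 1 at 1116 and the other 5 arrays between 323 and 429.

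Itgb7, known as the beta subunit of the gut homing receptor of lymphocytes, read 4003, 1267 and 1199 in controls and 5300, 2943 and 3151 with GapmeR Ntep. It was higher in every experiment, by 0.40, 1.22 and 1.39, and the groups overlapped only through control 1. The difference of 1.01 (SE 0.53, 2.01-fold) did not pass the test, with limma adjusted p = 0.297 unpaired and 0.0712 with experiments as blocks. Both known alpha partners of beta7, alpha4 and alphaE, were well above background on no array. Itgb6 and Itgb8 were also well above background on none.

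Laminin chains were lower in 5 of 7 tested genes, without a call after adjustment, beside 10094 of all 22094 genes. Lama5, the alpha chain of laminins widespread in adult basement membranes, read 101532, 68601 and 76954 in controls and 48384, 63773 and 43968 with GapmeR Ntep (chr2:179911079-179911138, minus strand, mm9). All Ntep arrays were below all controls, and the gap between Ntep 2 and control 2 was small, at -0.11 on the log2 scale. The difference was -0.66 (SE 0.24, 1.58-fold lower, limma adjusted p = 0.158). Lama3, a chain of the laminin of epithelial adhesion, differed by 0.04 (SE 0.26). Lama1, Lama2 and Lama4 were well above background on no array, and Lama4 stood at 20 throughout.

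Lamb2, the beta chain of kidney and nerve-muscle basement membranes, read 3113, 3891 and 3930 in controls and 2097, 2979 and 1889 with GapmeR Ntep. The groups did not overlap, and the experiments differed by -0.57, -0.39 and -1.06. The log2 difference of -0.67 (SE 0.23, 1.59-fold lower) had an limma adjusted p of 0.148. Lamb1, the other beta chain that joins Lama5 and Lamc1 in a trimer, read 110941, 60972 and 64085 against 88225, 65008 and 81112. Its groups overlapped, with a difference of 0.03 (SE 0.29, 95% interval -0.67 to 0.74). Lamb3, the beta chain of epithelial laminin, differed by -0.29 (SE 0.41) and was lower in each experiment, by 0.34, 0.23 and 0.30.

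Lamc1, the gamma chain of most laminins, read 40267, 41055 and 39904 in controls and 20424, 34283 and 33198 with GapmeR Ntep. The controls lay close together and all Ntep arrays were below them, Ntep 1 by the most. The difference was -0.50 (SE 0.24, 1.42-fold lower, limma adjusted p = 0.264). Lamc3 differed by -0.16 (SE 0.53). Within experiments the median of the 7 laminins was -0.51, -0.11 and -0.27, beside 0.03, 0.05 and 0.03 for all genes. In the unpaired fit without control 1 the median of the laminins was 0.05, while within experiments 2 and 3, which do not hold that array, it was below 0.

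The experiments differed among themselves. In both groups replicate 1 was at least 2-fold above the mean of replicates 2 and 3 for Itgav and Lamc3, and at least 2-fold below it for Itga1 and Itgal. These 4 of 25 genes (16%) stand beside 6.35% of all genes. For Itgav this amounted to 1.49 on the log2 scale in controls and 1.10 with GapmeR Ntep, which is more than the difference between the groups. The median standard deviation within groups was 0.44 on the log2 scale for the members and 0.34 for all genes. All 3 same-numbered pairs were lower in 8 members and higher in 3, beside 5951 and 7153 of the 22094 genes.

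Other genes of the adhesion machinery were counted from 4 lists, each by the brightest probe of a gene. The first list held adhesion adaptors and signalling proteins, called adaptors here. Of 39 tested, 3 were lower and 1 higher at a limma adjusted p under 0.05, beside 3.17% and 1.98% of all genes. The median of the adaptors was -0.11. Dock1, a Rac activator downstream of integrins, had means of 15133 and 4825 (control and Ntep; log2 difference -1.69, adjusted p = 0.0288). Nedd9, a docking protein of focal adhesions, had means of 333 and 140 (-1.26, adjusted p = 0.0366). Lpxn, a relative of paxillin, was well above background on all control arrays, at 97.1, 115 and 83.5, and on no Ntep array. It was at least 1.89-fold lower. Every Ntep array stood at the floor of 20, so the Ntep group had no measured spread. The limma adjusted p of 0.0157, which puts Lpxn among the 3 lower adaptors, was computed on those floored values and does not measure their spread. Parvb, which binds integrin-linked kinase, had means of 386 and 766 (1.00, adjusted p = 0.0361). Kank1, of the rim of focal adhesions, passed at 2-fold with an unadjusted p of 0.00391 (1.18, adjusted p = 0.0581). With experiments as blocks, 5 adaptors were lower and 3 higher, beside 7.4% and 6.49% of all genes. At an unadjusted limma p under 0.05, 9 adaptors were lower and 3 higher, beside 12.6% and 12.3% of all genes. Parvb did not pass when any 1 of the 6 arrays was left out, and the count of lower adaptors was 0 without Ntep 3, control 2 or control 3 and 1 without Ntep 1 or control 1. Without Ntep 3 or without control 2, 0 genes of the array passed the adjusted p, those of these lists included.

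Of 14 membrane partners of integrins, 1 was lower and 0 higher after adjustment, beside 3.17% and 1.98% of all genes. The lower partner was Sdc2, a heparan sulphate proteoglycan, with means of 9098 and 3930 (-1.21, limma adjusted p = 0.0287). It passed without Ntep 2 but not without any 1 of the other 5 arrays, nor by the methods' t-test. In the fit blocked by experiment 3 were lower and 0 higher, beside 7.4% and 6.49% of all genes. At an unadjusted limma p under 0.05, 2 partners were lower and 2 higher, beside 12.6% and 12.3% of all genes. Of 14 other integrin ligands, 1 was lower and 1 higher, beside the same 3.17% and 1.98% of all genes. Fbn1, the fibrillin of microfibrils, was lower (-0.88, adjusted p = 0.0439), a call that was lost when any 1 of the 6 arrays was left out, with 75th percentile scaling, with no normalization, with no filter on dim probes and by the methods' t-test. Spp1, osteopontin, which binds alphav integrins, was higher, with 1951, 1605 and 1513 in controls and 7883, 6674 and 7764 with GapmeR Ntep (2.14, adjusted p = 0.0157). All Ntep arrays were far above all controls for Spp1, and its adjusted p missed the threshold without Ntep 3, control 2 or control 3. At 2-fold with an unadjusted limma p under 0.01, 2 ligands were lower, beside 4.99% of all genes. Postn, a matrix protein of fibroblasts, read 110, 171 and 208 in controls and 73.7, 60.5 and 63.0 with GapmeR Ntep (-1.27). It was dim, well above background on 2 of the 3 Ntep arrays. The other was Madcam1, the ligand of alpha4beta7. Madcam1 read 778, 121 and 173 in controls and 22.7, 44.9 and 26.2 with GapmeR Ntep. It was well above background on 1 of the 3 Ntep arrays, with values close to the floor of 20, so no fold is given. With experiments as blocks 1 of these 2 ligands, Postn, passed the same rule. By it 0 ligands were lower with normexp, by the methods' t-test, without Ntep 2 or without Ntep 3. At an unadjusted limma p under 0.05, 4 ligands were lower and 1 higher, beside 12.6% and 12.3% of all genes.

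Of 12 other basement membrane genes tested, 11 had a difference below 0 and 1 above, with a median of -0.82. Of all 22094 genes, 10094 were below 0 and 12000 above. No basement membrane gene passed the adjusted p. Beside 4.99% of all genes, 2 were lower at 2-fold with an unadjusted limma p under 0.01. These were Agrn, a proteoglycan that binds laminin, with means of 82065 and 33497 (-1.35, adjusted p = 0.0667), and Hspg2, perlecan, with means of 39907 and 17450 (-1.14, adjusted p = 0.077). By that rule 0 were lower without control 1 or control 3, with no filter on dim probes and by the methods' t-test. At an unadjusted p under 0.05, 5 of the 12 genes were lower and 0 higher, beside 12.6% and 12.3% of all genes. With experiments as blocks 4 were lower after adjustment, beside 7.4% of all genes. Nid1, the nidogen that ties laminin to collagen IV, differed by -0.18 (adjusted p = 0.653). The summed fibroblast markers were also lower on the Ntep arrays, as given above. Of 10 tested, 9 had a difference below 0 and 0 passed the adjusted p, and their part in these values was not tested.

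**Figure D4:**
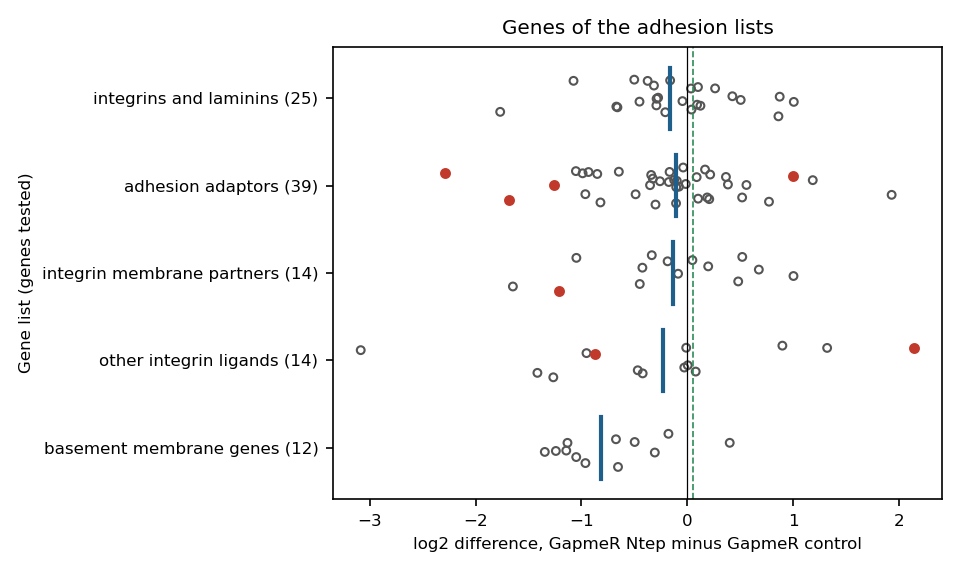
Log2 difference of each tested gene (brightest probe) in the integrins and laminins and in 4 lists of related genes, with the number of genes tested in parentheses; filled red points passed an adjusted p under 0.05, blue bars are medians and the dashed line is the median of all genes tested. Medians run from -0.11 for the adaptors to -0.82 for the basement membrane genes, and no integrin or laminin point is filled.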

How the data were processed

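RNA of 6 cultures of 3T3 cells was hybridised to Agilent arrays in 1 color. The authors extracted intensities with Agilent Feature Extraction 10.7.3.1 (submitters' processing notes). They deposited them background subtracted and not normalized between arrays, with a second file of quantile-normalized intensities floored at 20. Here spots of a probe were averaged, quantile normalization was applied and a floor of 20 was set. Groups were compared on the log2 scale by an unpaired, two-sided fit across all probes (limma 3.58.1, R 4.3.3). The fit took probes whose mean reached 50 in either group, and the brightest probe stood for a gene. Probe sequences and mm9 positions come from the files, promoters from RefSeq. The steps were tested on simulated data.

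The members, lists and rules were chosen with earlier results of these data known. Every member was named. Each array was given for Itga10 and the main subunits, and from 4 lists the genes past either threshold, at most 6 a list. Replicate numbers match the order of the arrays in the study's list of experiments. Residuals of same-numbered arrays correlated at 0.466, 0.300 and 0.254, and others at -0.327 to 0.126, so a fit with experiments as blocks was added. Alternatives covered normalization, background, floor, cutoff, outlier spots, the test and each array left out. A leukocyte marker of the list is not reported here.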

Additional observations from a re-analysis of the deposited data

How the results depend on the processing

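The count of 0 members past the adjusted p held in both directions under most alternatives. With an intensity trend 1 was lower (Itga10), where 1156 of all 22094 genes were lower and 849 higher. With array weights 5 were lower (Itga10, Itga2b, Itga7, Lama5 and Lamb2) and 3 higher (Itgav, Itgax and Itgb7). Over all genes the array weights gave 3549 lower and 3868 higher. At 2-fold and p under 0.01 they gave 1 higher member, beside 1313 of all genes. The weights ran from 0.303 for Ntep 1 to 3.04 for Ntep 3, the only array on which Itgax was above 20. With the replicate block 1 was lower (Itga10) and 1 higher (Itgav). The block changed no other member call, and over all genes it gave 1636 lower and 1435 higher calls against 701 and 437. Itga10 was lost from the count at 2-fold and p under 0.01 (0 members) with no filter on dim probes and with the methods' t-test. When each array was left out in turn, that count was 0 to 1 for lower members (0 without Ntep 1, Ntep 3, control 2 or control 3) and 0 to 1 for higher ones (1 without control 1). Over all genes there were 0 calls without Ntep 3 or control 2.

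The median of the tested members was -0.16, 0 with no filter, and below 0 under the others. By 75th percentile scaling the median of the members became -0.05 and that of all genes went from 0.06 to 0.22. The median of the integrins, 0.02, changed sign under several, to -0.03 without normalization and -0.24 with the mean of a gene's probes, and that of the laminins changed sign without control 1 and in no other unpaired fit. For single probes, 32 in all, none had passed the adjusted p in the main fit, so a change of sign could not undo a call. Several values changed sign. Itga6 was 0.12 with 75th percentile scaling. Without normalization Itgb3 was -0.018 and Lama3 -0.014. With normexp Itga11 was 0.060 and Lamb1 -0.019, and with a floor of 50 Itga11 was 0.051 and Itgal (A_55_P2184606) -0.010. With array weights Itga1 was 0.062, Itgb2 -0.21, Itgb3 -0.11 and Itgb4 -0.023. Leaving out arrays gave -0.69 to 0.45 for Itga1, -0.12 to 0.031 for Itga6, -1.49 to 0.33 for Itga11 and -0.0061 to 0.22 for Itgb1. It gave -0.20 to 0.97 for Itgal, with -0.012 to 1.04 and -0.58 to 0.80 on its other probes. It gave -0.26 to 0.29 for Itgb2, -0.091 to 0.27 for Itgb3 and -0.025 to 0.87 for Itgb4. For the laminins it gave -0.13 to 0.28 for Lama3, -0.12 to 0.31 for Lamb1, -0.61 to 0.052 for Lamb3 and -0.51 to 0.34 for Lamc3. The cause of these changes was not tested.

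Itga10 kept its direction under all 20 alternatives, from -2.26 to -1.52, with an adjusted p of 0.00477 to 0.247. Itgav stayed at 0.49 to 1.35. With 3 arrays per group, members with signals near background, among them Itga2, Itga11 and Itgax, have no usable direction.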
